A study of Homo sapiens with 15 samples.

Results

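The circadian clock repressors and the transcription factor BHLHE40 were followed as a set of 10 genes, taken by symbol from the expression tables of MRC5 and H196 cells. The set holds PER1, PER2, PER3, CRY1, CRY2, NR1D1, NR1D2, DBP, BHLHE40 and BHLHE41. All 10 were listed among the 16382 genes of the MRC5 table and the 16076 genes of the H196 table, and all 10 passed the filter on low counts in every comparison. MRC5 is a line of human lung fibroblasts, H196 is a non-neuroendocrine (non-NE) small cell lung cancer (SCLC) line and H69 is a neuroendocrine (NE) SCLC line. Fibroblasts were mono-cultured (MRC5_Mo), co-cultured with H69 (MRC5_CoH69) or co-cultured with H196 (MRC5_CoH196), and H196 cells were mono-cultured (H196_Mo) or co-cultured with MRC5 (H196_Co), with 3 libraries per group and 15 in all. The partner cells sat on a porous membrane insert above the sequenced cells for a week. No group carried a transgene or drug. Each group stands on a single line, and an RNA level here is a mean over all cells of a well, so that fewer expressing cells and less RNA per cell cannot be told apart.

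In the mammalian clock, the activators CLOCK (or NPAS2) and BMAL1 (gene ARNTL) bind E-box sequences and switch on their own repressors. PER and CRY proteins form a complex that blocks the activators, NR1D1 and NR1D2 (REV-ERB alpha and beta) repress ARNTL at sites shared with the ROR activators, and BHLHE40 and BHLHE41 (DEC1 and DEC2) compete for E-boxes. DBP is an output factor that acts through D-boxes and is opposed by NFIL3. BHLHE40 is also a known target of the hypoxia-inducible factors, and PER1 is a known target of the glucocorticoid receptor. In unsynchronized cultures the phase of each cell differs, and the time of day of the harvest is not given in the sources used here.

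The 4 genes with the largest changes in MRC5_CoH196 were NR1D1, BHLHE40, BHLHE41 and DBP, and the bases before their start sites are shown because clock factors are known to act on letters of this kind. The sequences are the 250 bases upstream of the RefSeq start site (GRCh38.p14), read 5′ to 3′ along the gene. Capitals mark an E-box (CACGTG), an E′-box (CACGTT), the core of a hypoxia response element (ACGTG) or a D-box (TTANGTAA), on either strand.
BHLHE40, chr3:4979187-4979436, plus strand: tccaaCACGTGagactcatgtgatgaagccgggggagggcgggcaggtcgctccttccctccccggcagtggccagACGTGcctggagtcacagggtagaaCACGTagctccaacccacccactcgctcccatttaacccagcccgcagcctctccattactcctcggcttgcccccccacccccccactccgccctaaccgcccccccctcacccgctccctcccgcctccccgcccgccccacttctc
BHLHE41, chr12:26125038-26125287, minus strand: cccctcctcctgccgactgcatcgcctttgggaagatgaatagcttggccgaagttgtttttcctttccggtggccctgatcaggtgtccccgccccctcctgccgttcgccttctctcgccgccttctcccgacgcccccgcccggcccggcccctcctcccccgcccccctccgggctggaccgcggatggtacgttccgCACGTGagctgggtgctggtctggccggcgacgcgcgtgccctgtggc
NR1D1, chr17:40100590-40100839, minus strand: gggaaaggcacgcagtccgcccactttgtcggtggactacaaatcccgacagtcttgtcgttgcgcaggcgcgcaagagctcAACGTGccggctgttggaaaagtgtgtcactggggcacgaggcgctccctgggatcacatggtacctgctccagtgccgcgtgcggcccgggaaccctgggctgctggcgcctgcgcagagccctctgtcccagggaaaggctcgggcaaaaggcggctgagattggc
DBP, chr19:48637380-48637629, minus strand: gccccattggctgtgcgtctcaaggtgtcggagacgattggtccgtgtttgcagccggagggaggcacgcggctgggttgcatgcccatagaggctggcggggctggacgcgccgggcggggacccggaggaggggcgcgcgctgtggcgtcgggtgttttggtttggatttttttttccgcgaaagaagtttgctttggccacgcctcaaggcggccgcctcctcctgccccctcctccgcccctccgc
BHLHE40 held an E-box starting 245 bases before the start site and further ACGTG cores at 174 and 149 bases, BHLHE41 held an E-box at 48 bases, NR1D1 held an E′-box at 168 bases, and the DBP window held none of these letters. RefSeq gave 13 such windows for the 10 genes. The E-box stood in 4 of the 13 (BHLHE40, BHLHE41, PER1 and NR1D2), against 6.34% of all 35116 windows. The E′-box stood in 4 of the 13 (PER2, CRY1, CRY2 and NR1D1), against 4.55% of all windows. ACGTG, read on either strand, lies inside both the E-box and the E′-box. It stood in 8 of the 13, against 18.5% of all windows, and these were the windows already counted for the E-box and E′-box. The D-box stood in 2 (PER3 and NR1D2), against 1.98%. These matches describe letters only. CRY1, whose level moved least in MRC5_CoH196, also held an E′-box, at 89 bases.

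Levels are given in FPKM, fragments scaled by gene length and by the mapped fragments of the library, for each library in turn. Each change is a log2 fold change from edgeR's quasi-likelihood test on the counts. Its standard error (SE) was worked back from that test, as the absolute log2 fold change over the square root of the F value. A gene was counted as a differentially expressed gene (DEG) at a Benjamini-Hochberg adjusted p below 0.05 over all genes tested and a log2 fold change beyond 0.58 in either direction. Library totals ran from 18476890 to 19170560 counts in MRC5 and from 16073597 to 17358349 in H196. The 10 fibroblast markers set for the check (such as COL1A1, DCN and PDGFRB) were present in all 9 MRC5 libraries, with a summed level of 8942 to 10571 FPKM. The 5 of 9 NE markers listed there (CHGB, SYP, NCAM1, DLL3 and SCG3) summed to 0.33 to 0.78 FPKM, each under 1 FPKM. In H196 libraries 8 of the 9 listed fibroblast markers were under 1 FPKM in every library, which leaves VIM. Of the 5 epithelial markers, EPCAM and CDH1 were under 1 FPKM in all groups, and KRT8, KRT18 and KRT19 were present in MRC5, with a sum over the list of 106 to 112 FPKM in MRC5_Mo, 128 to 144 in MRC5_CoH69 and 108 to 114 in MRC5_CoH196. Markers also moved in MRC5_CoH196 against MRC5_Mo. COL1A1 fell by 1.57 and COL3A1 by 2.09 on the log2 scale, PDGFRB (0.67) and VIM (0.63) rose, as did KRT8 (0.83) and KRT19 (0.99). KRT18, the most abundant of the epithelial list, fell from a mean of 75.8 FPKM to 56.6 FPKM. The part of these markers in the results for the clock genes was not tested.

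**Figure D1:**
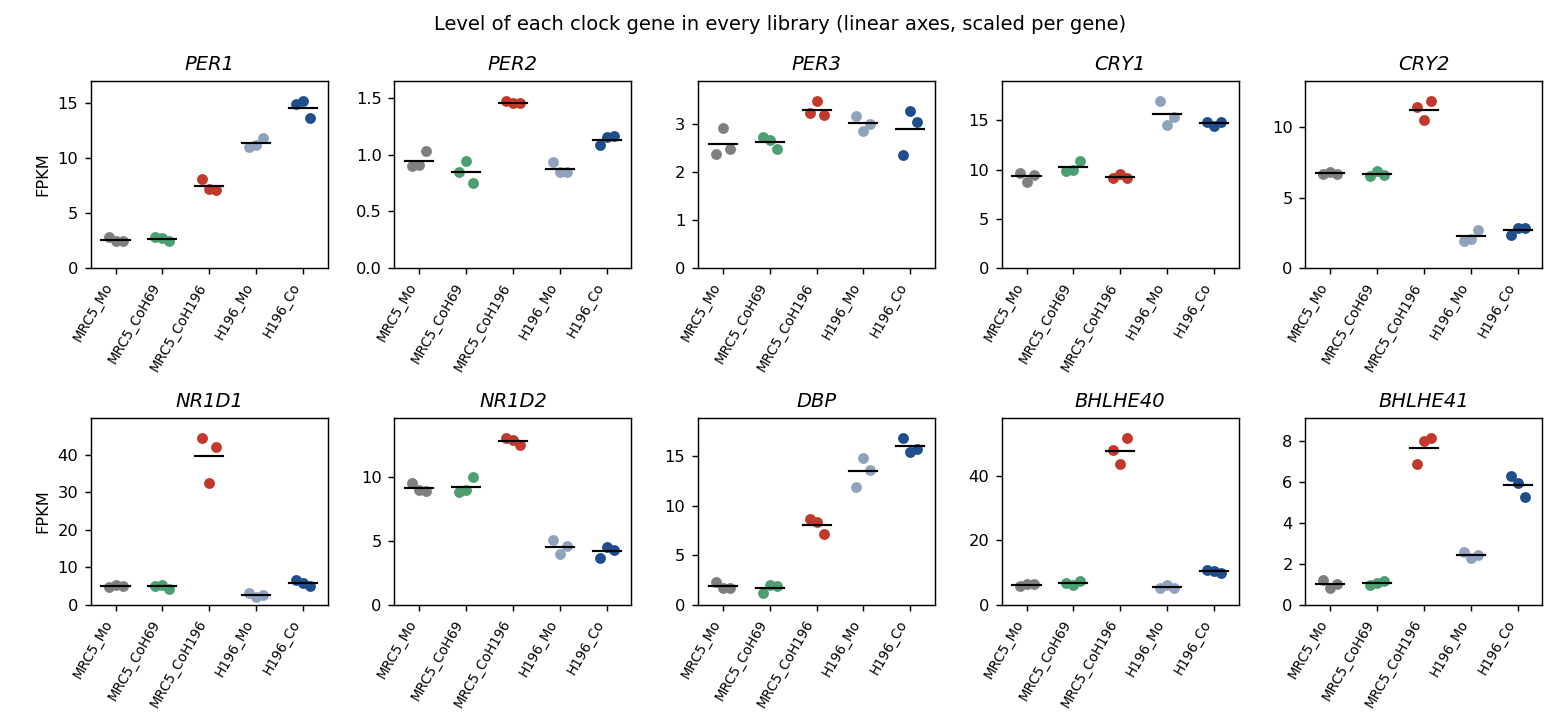
Level of each of the 10 genes in FPKM (linear axis from 0, scaled per gene) in the 15 libraries. Points are libraries and black lines are group means over 3 libraries. In MRC5_CoH196, NR1D1 lay between 32.5 and 44.5 FPKM and BHLHE40 between 43.7 and 51.9 FPKM, above every library of the other 4 groups.

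To ask how the clock repressors of fibroblasts differed after a week beside non-NE cells, MRC5_CoH196 was compared with MRC5_Mo. Of the 10 genes, 8 were DEGs and all 8 were higher in co-culture. Over all 12819 genes tested 31.9% were DEGs, and 17.2% were DEGs with a higher level. The median log2 fold change was 1.31 for the 10 genes and -0.003 for all genes tested. NR1D1, BHLHE40 and BHLHE41 rose by a factor between 8.46 and 8.83, DBP and PER1 rose less, and CRY2, PER2 and NR1D2 rose by a factor of 1.58 to 1.89.

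The largest change was that of NR1D1 (gene ID 9572, chr17:40092793-40100589, GRCh38.p13), the heme-binding repressor of ARNTL. Its levels were 4.78, 5.41 and 5.02 FPKM in MRC5_Mo and 44.5, 32.5 and 42.0 FPKM in MRC5_CoH196. The 3 co-cultured libraries lay far above the mono-cultured ones, with the second the lowest of the 3. The log2 fold change was 3.14 (SE 0.10, adjusted p = 4.98e-19, edgeR), the 86th highest of 12819 genes. NR1D2 (gene ID 9975, chr3:23945286-23980846), its paralog with the same targets, moved far less. It gave 9.55, 9.0 and 8.89 FPKM alone and 13.1, 12.9 and 12.5 FPKM beside H196, with a log2 fold change of 0.66 (SE 0.052, adjusted p = 2.42e-11, edgeR). Within each library the ratio of NR1D1 to NR1D2 was 0.501 to 0.601 in MRC5_Mo and 2.52 to 3.41 in MRC5_CoH196. The more abundant REV-ERB transcript, per length, was thus NR1D2 in fibroblasts alone and NR1D1 in those beside H196.

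BHLHE40 (gene ID 8553, chr3:4979420-4986905) and BHLHE41 (gene ID 79365, chr12:26116141-26125037) encode the paired DEC repressors. BHLHE40 was at 5.81, 6.36 and 6.60 FPKM in MRC5_Mo, from 313 to 352 counts, and at 48.2, 43.7 and 51.9 FPKM in MRC5_CoH196, from 2316 to 2849 counts. The groups were wide apart, and the log2 fold change of 3.11 had the smallest SE among the 4 largest risers (0.070, adjusted p = 3.81e-22, edgeR). BHLHE41 was at 1.2, 0.81 and 1.04 FPKM alone and at 6.85, 7.97 and 8.15 FPKM beside H196, a log2 fold change of 3.08 (SE 0.11, adjusted p = 4.10e-18, edgeR). BHLHE40 stayed the more abundant of the DEC genes, and the log2 ratio of BHLHE40 to BHLHE41 was 2.64 ± 0.35 (SD, n = 3) in MRC5_Mo and 2.65 ± 0.18 (SD, n = 3) in MRC5_CoH196.

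Among the PER genes, whose proteins carry the CRY repressors into the nucleus, the change was uneven. PER1 (gene ID 5187, chr17:8140470-8156360) was at 2.80, 2.46 and 2.50 FPKM in MRC5_Mo and at 8.12, 7.16 and 7.10 FPKM in MRC5_CoH196. Every co-cultured library was above every mono-cultured one, and the log2 fold change was 1.71 (SE 0.078, adjusted p = 5.93e-16, edgeR). PER2 (gene ID 8864, chr2:238244038-238291538) was the least abundant of the 10 genes in all 5 groups. It moved from 0.90, 0.91 and 1.03 FPKM to 1.47, 1.45 and 1.45 FPKM, with a log2 fold change of 0.80 (SE 0.11, adjusted p = 5.43e-07, edgeR). PER3 (gene ID 8863, chr1:7784285-7845181) went from 2.38, 2.91 and 2.48 FPKM to 3.24, 3.48 and 3.19 FPKM. It passed the test (adjusted p = 9.89e-07, edgeR) but its log2 fold change of 0.51 (SE 0.074) was under the limit for a DEG.

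The CRY genes, the direct blockers of CLOCK and BMAL1, changed by different amounts. CRY2 (gene ID 1408, chr11:45847118-45883244) was at 6.67, 6.82 and 6.69 FPKM alone and at 11.4, 10.5 and 11.8 FPKM beside H196, with a log2 fold change of 0.91 (SE 0.061, adjusted p = 9.21e-13, edgeR). CRY1 (gene ID 1407, chr12:106991364-107123314) was at 9.69, 8.75 and 9.50 FPKM alone and at 9.16, 9.56 and 9.19 FPKM beside H196, so that the groups overlapped. On the counts its log2 fold change was 0.17 (SE 0.063, adjusted p = 0.0204, edgeR), but on log2(FPKM + 1) it was -0.0005 and the gene did not pass. The median of all genes on that scale was -0.133. CRY2 to CRY1 ratios were 0.688 to 0.779 in MRC5_Mo and 1.10 to 1.29 in MRC5_CoH196.

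DBP (gene ID 1628, chr19:48630030-48637379), the D-box output factor, was at 2.26, 1.66 and 1.68 FPKM in MRC5_Mo and at 8.62, 8.32 and 7.12 FPKM in MRC5_CoH196. The groups did not overlap and the log2 fold change was 2.36 (SE 0.12, adjusted p = 9.81e-15, edgeR). In FPKM, 9 of the 10 genes had groups that did not overlap, CRY1 being the exception, while this held for 75.9% of all genes tested. All 10 passed the adjusted p alone, as did 74.3% of all genes. On log2(FPKM + 1), where the median of all genes was -0.133, 6 were DEGs, as NR1D2 and PER2 were below the fold limit. CRY1 did not pass without the second MRC5_Mo library (0.12, adjusted p = 0.122, edgeR).

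**Figure D2:**
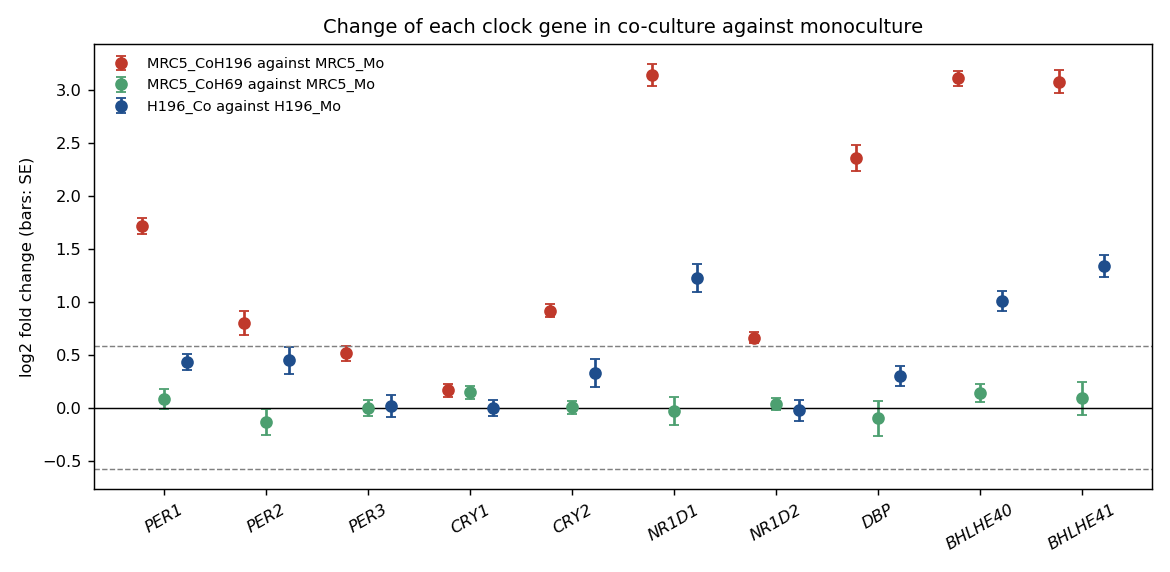
Log2 fold change of each of the 10 genes in 3 co-culture comparisons, from edgeR, with bars of 1 SE. Dashed lines mark the DEG limit of 0.58 in either direction. In MRC5_CoH196 NR1D1, BHLHE40 and BHLHE41 lay above 3, in H196_Co the same 3 genes lay between 1.01 and 1.34, and in MRC5_CoH69 all 10 lay between -0.14 and 0.14.

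Whether the same genes moved beside NE cells was asked by comparing MRC5_CoH69 with the same MRC5_Mo libraries. None of the 10 genes was a DEG, where 0.554% of all genes tested were. None passed the adjusted p in edgeR, against 6.7% of all genes, and none did with DESeq2. CRY1 alone had an unadjusted p below 0.05, as had 20.1% of all genes. BHLHE40 was at 6.85, 6.28 and 7.31 FPKM beside H69 and NR1D1 at 5.0, 5.41 and 4.36 FPKM, which overlapped the mono-cultured libraries. Their log2 fold changes were 0.14 (SE 0.087, adjusted p = 0.422, edgeR) and -0.03 (SE 0.14, adjusted p = 0.928, edgeR). DBP gave -0.10 (SE 0.17), PER1 gave 0.08 (SE 0.092) and BHLHE41 gave 0.09 (SE 0.16). CRY1 was at 9.90, 9.99 and 10.9 FPKM, above all MRC5_Mo libraries, with a log2 fold change of 0.14 (SE 0.062, adjusted p = 0.178, edgeR). It was the single gene of the 10 whose groups did not overlap, a pattern seen for 24.3% of all genes.

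The partners were then compared directly, MRC5_CoH196 against MRC5_CoH69. The DEGs were the 8 genes that were DEGs against MRC5_Mo, all higher beside H196, where 28.2% of all genes were DEGs and 15.2% were DEGs with a higher level. Of the 10 genes 9 passed the adjusted p, as did 72.3% of all genes, and all 10 had FPKM groups that did not overlap, against 74.0%. NR1D1 differed by a log2 fold change of 3.17 (SE 0.10), BHLHE41 by 2.99 (SE 0.11), BHLHE40 by 2.98 (SE 0.069), DBP by 2.46 (SE 0.13) and PER1 by 1.63 (SE 0.078). PER2, CRY2 and NR1D2 differed by 0.94, 0.91 and 0.63, and PER3 by 0.51, below the DEG limit. CRY1 did not pass (0.02, SE 0.062, adjusted p = 0.773, edgeR), although its FPKM were lower in all 3 MRC5_CoH196 libraries than in all 3 MRC5_CoH69 libraries.

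In the tumor cells, H196_Co was compared with H196_Mo to ask whether the partner of the fibroblasts moved too. Of the 10 genes 3 were DEGs, all higher in co-culture, where 3.86% of all 12806 genes tested were DEGs and 3.26% were DEGs with a higher level. They were BHLHE41, NR1D1 and BHLHE40. BHLHE41 was at 2.56, 2.29 and 2.45 FPKM in H196_Mo and at 6.28, 5.94 and 5.26 FPKM in H196_Co, a log2 fold change of 1.34 (SE 0.10, adjusted p = 1.31e-08, edgeR) and the 57th highest of all genes. NR1D1 was at 3.06, 2.15 and 2.75 FPKM alone and at 6.61, 5.94 and 5.01 FPKM in co-culture, a log2 fold change of 1.22 (SE 0.13, adjusted p = 1.71e-06, edgeR). BHLHE40 was at 5.15, 6.02 and 5.15 FPKM alone and at 10.97, 10.4 and 9.85 FPKM in co-culture, a log2 fold change of 1.01 (SE 0.092, adjusted p = 1.46e-07, edgeR). For all 3 the groups did not overlap.

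The other 7 genes were within the fold limit for a DEG in H196 cells. PER1 rose from 10.96, 11.2 and 11.8 FPKM to 14.9, 15.1 and 13.6 FPKM, a log2 fold change of 0.43 (SE 0.074, adjusted p = 0.000369, edgeR). PER2 gave 0.45 (SE 0.13, adjusted p = 0.0172, edgeR) and DBP gave 0.30 (SE 0.095, adjusted p = 0.0321, edgeR), and neither passed with DESeq2 or on log2(FPKM + 1). PER2 did not pass without H196_Co library 3 or H196_Mo library 2 or 3 (0.42 to 0.43), nor DBP without H196_Co library 1 or 3 or H196_Mo library 1 or 3 (0.19 to 0.34). Under edgeR 6 of the 10 genes passed the adjusted p, as did 19.8% of all genes, and the FPKM groups of the same 6 did not overlap, against 40.3% of all genes. DBP was at 11.9, 14.9 and 13.6 FPKM alone and at 16.9, 15.4 and 15.8 FPKM in co-culture. CRY2 did not pass (0.33, SE 0.13, adjusted p = 0.0840, edgeR), and without the third H196_Mo library, its highest, it did (0.50, adjusted p = 0.0177, edgeR). CRY1, PER3 and NR1D2 gave -0.01, 0.01 and -0.03. The ratio of NR1D1 to NR1D2 was 0.544 to 0.606 in H196_Mo and 1.17 to 1.79 in H196_Co, so the REV-ERB order turned in H196 cells as well.

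The response of the fibroblasts to H196 was set against that of H196 to the fibroblasts in 1 fit of all 15 libraries. The difference passed the adjusted p for 8 of the 10 genes, as it did for 51.2% of 13585 genes, and 6 were past the DEG limit, against 24.7% of all genes. All 6 had the larger rise in fibroblasts, and 12.1% of all genes were past the limit in that direction. The difference in log2 fold change was 2.08 (SE 0.12, adjusted p = 1.43e-13, edgeR) for BHLHE40, 2.03 (SE 0.16) for DBP, 1.89 (SE 0.20) for NR1D1, 1.72 (SE 0.16) for BHLHE41 and 1.25 (SE 0.11) for PER1. NR1D2 differed by 0.66 (SE 0.11), CRY2 by 0.56 (SE 0.14) and PER3 by 0.47 (SE 0.13). For PER2 (0.33, SE 0.16, adjusted p = 0.0913, edgeR) and CRY1 (0.14, SE 0.093, adjusted p = 0.208, edgeR) a difference between the lines was not shown.

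**Figure D3:**
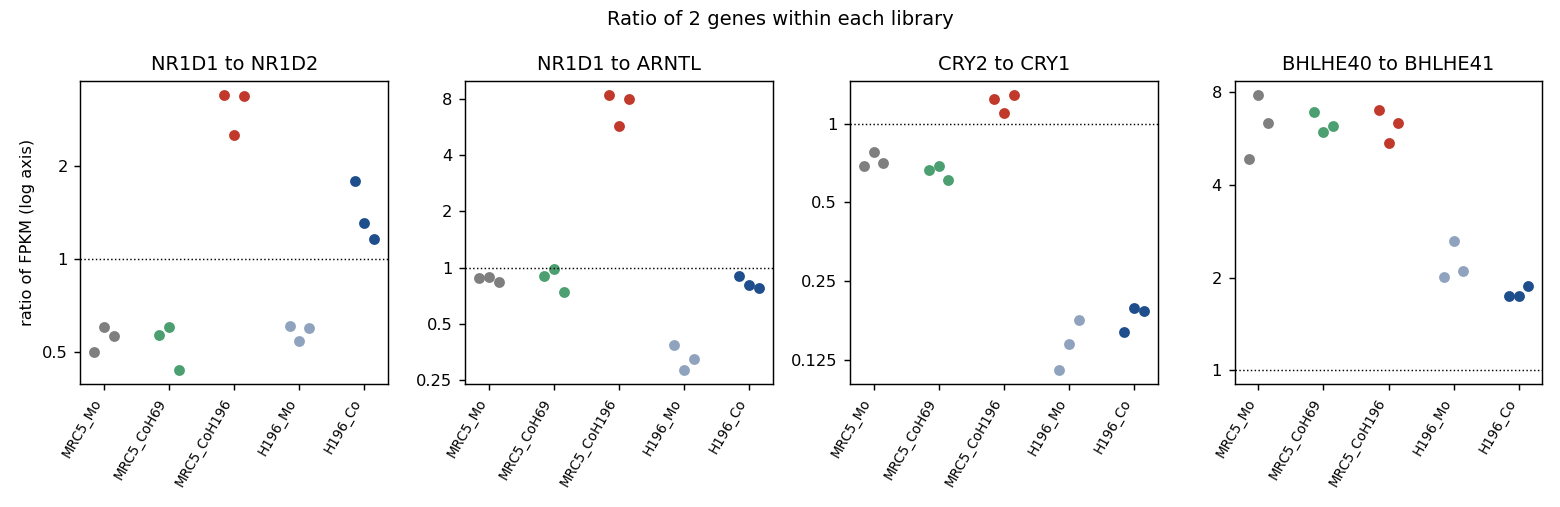
Ratio of the FPKM of 2 genes within each library (log axis, dotted line at 1), 1 point per library. NR1D1 to NR1D2 lay at 0.437 to 0.606 in the groups MRC5_Mo, MRC5_CoH69 and H196_Mo and above 1 in MRC5_CoH196 and H196_Co, whereas BHLHE40 to BHLHE41 overlapped between the 3 MRC5 groups.

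The lines already differed when mono-cultured. They were grown in different culture media, so line and medium cannot be told apart in this comparison. MRC5_Mo against H196_Mo gave 7 DEGs among the 10 genes, where 61.7% of all genes were DEGs, 30.2% with a higher and 31.5% with a lower level in fibroblasts. All 10 passed the adjusted p, as did 86.6% of all genes. PER3 passed as higher in fibroblasts (0.23) but was lower there on log2(FPKM + 1). CRY2 (2.02), NR1D2 (1.47), NR1D1 (1.38) and BHLHE40 (0.64) were higher in fibroblasts on the log2 scale, and DBP (-2.41), PER1 (-1.69) and BHLHE41 (-0.81) were lower. These values depend on how the lines were scaled, since the median of all genes shifted to -0.339 on log2(FPKM + 1), and in FPKM BHLHE40, PER2 and PER3 overlapped between the lines. The other 7 did not overlap, against 89.2% of all genes. On log2(FPKM + 1) 7 were DEGs too, with CRY1 in place of BHLHE40. The order of the 10 genes by mean FPKM changed with it. CRY1 (9.31 FPKM) and NR1D2 (9.15 FPKM) led in MRC5_Mo, BHLHE40 (47.9 FPKM) and NR1D1 (39.7 FPKM) led in MRC5_CoH196, CRY1 (15.6 FPKM) and DBP (13.5 FPKM) led in H196_Mo, and DBP (16.01 FPKM) and CRY1 (14.7 FPKM) led in H196_Co. For PER1 and DBP, the 5 groups had the same order at the top, with H196_Co above H196_Mo and both above MRC5_CoH196, and no overlap between these neighbours.

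Of the 4 activator genes, 1 was a DEG in MRC5_CoH196, where 31.9% of all genes were, and the median log2 fold change was 0.21. ARNTL, the target of the REV-ERB proteins, was at 5.42, 6.07 and 5.97 FPKM in MRC5_Mo and at 5.27, 5.63 and 5.24 FPKM in MRC5_CoH196, with overlapping groups and a log2 fold change of 0.06 (SE 0.079, adjusted p = 0.485, edgeR). NR1D1 per ARNTL was 0.841 to 0.891 in MRC5_Mo and 5.77 to 8.45 in MRC5_CoH196. NPAS2, the CLOCK paralog, was the DEG (0.69, adjusted p = 7.10e-09, edgeR), CLOCK passed at 0.36, and ARNTL2, the ARNTL paralog, fell by 0.51 on the log2 scale, below the DEG limit. In H196_Co no activator was a DEG, against 3.86% of all genes. NPAS2 gave 0.57 (adjusted p = 0.0252, edgeR), CLOCK gave -0.30 (adjusted p = 0.0239, edgeR) and ARNTL gave -0.11 (adjusted p = 0.414, edgeR).

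RORA and NFIL3, which oppose members of the set at their binding sites, rose in MRC5_CoH196. RORA, an activator that competes with the REV-ERB proteins for their sites, was at 0.36, 0.39 and 0.28 FPKM in MRC5_Mo and at 4.80, 5.14 and 5.33 FPKM in MRC5_CoH196, a log2 fold change of 4.06 (SE 0.092, adjusted p = 3.81e-22, edgeR). In H196 it went from 0.05, 0.03 and 0.07 FPKM to 0.20, 0.26 and 0.24 FPKM (2.26, SE 0.27, adjusted p = 6.18e-06, edgeR), a change between low levels. RORB was not tested in MRC5 and gave -0.18 in H196. NFIL3, the repressor that opposes DBP at D-boxes, was at 17.2, 18.0 and 17.6 FPKM alone and at 89.1, 85.0 and 94.6 FPKM beside H196, a log2 fold change of 2.51 (SE 0.054, adjusted p = 1.28e-22, edgeR). TEF, a relative of DBP, rose by 0.78, and HLF was not tested. In H196_Co NFIL3 gave 0.20 and did not pass.

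Of the 13 tested genes for clock protein turnover and kinases, 3 were DEGs in MRC5_CoH196, all higher, against 17.2% of all genes, and 11 passed the adjusted p, all higher, against 74.3% of all genes in either direction. The share of DEGs was near that of all genes. The share of all genes that passed with a higher level was not taken, so the 11 have no like figure. PRKAA2, a subunit of the kinase AMPK, which is known to mark CRY proteins for breakdown, rose by 1.31, and CSNK1E, a PER kinase, rose by 0.80. PRKAA2 was low, at 0.52 to 0.72 FPKM in MRC5_Mo and 1.08 to 1.47 FPKM in MRC5_CoH196. Its more abundant paralog PRKAA1, at 18.6 to 19.1 FPKM in MRC5_Mo, rose by 0.32. Of the 11 tested partners and outputs, 3 were higher DEGs and 3 lower ones, against 17.2% and 14.7% of all genes. CIART, a repressor of CLOCK and BMAL1, rose by 0.94 and HDAC3, the deacetylase recruited by the REV-ERB proteins, rose by 0.83. TIMELESS and TIPIN, which form a replication fork complex, fell by 1.14 and 0.89 on the log2 scale. In H196_Co neither list had a DEG, against 3.86% of all genes. PASD1, a repressor of CLOCK and BMAL1 in tumor cells, was at 22.8 to 25.0 FPKM in all 6 H196 libraries. It was at 0.15, 0.11 and 0 FPKM in MRC5_CoH196 and was listed at 0 in the other 6 MRC5 libraries.

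**Figure D4:**
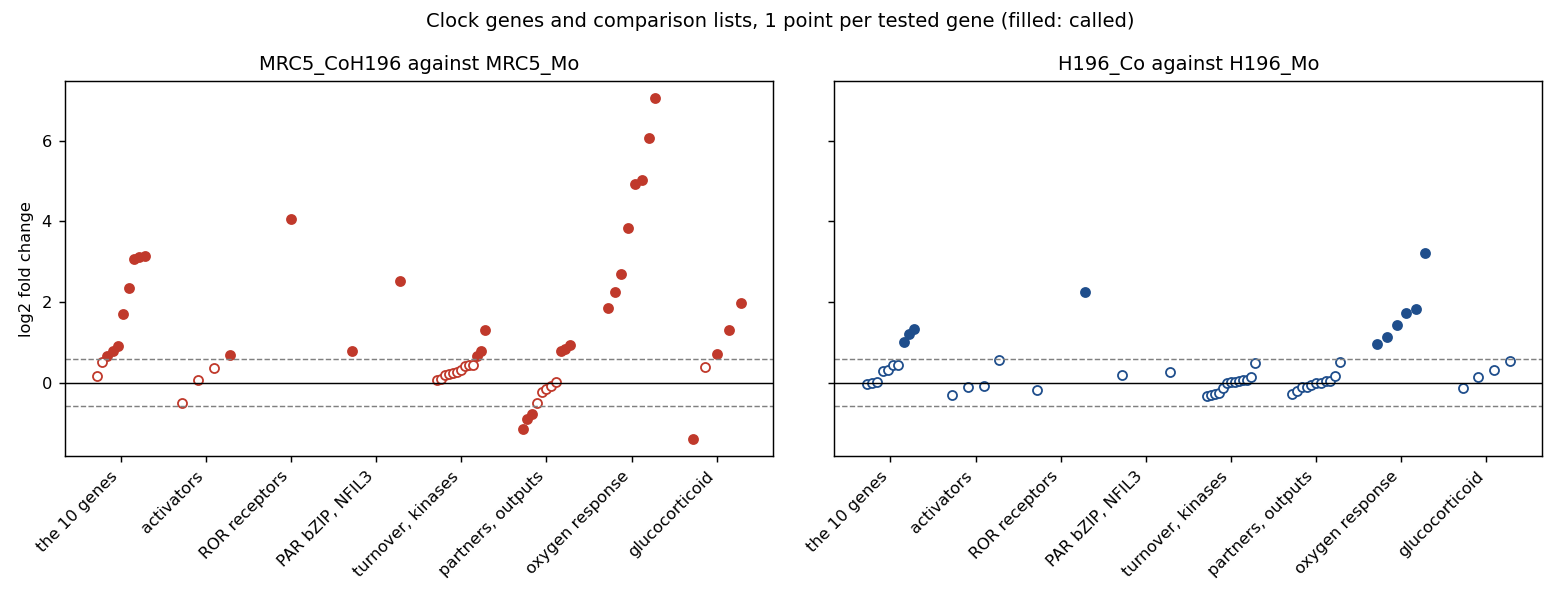
Log2 fold change of every tested gene of each list in MRC5_CoH196 against MRC5_Mo (left) and H196_Co against H196_Mo (right), from edgeR. Filled points are DEGs, open points are not, and dashed lines mark the limit of 0.58. All 8 oxygen-response genes tested on the left and all 6 on the right were DEGs with a higher level. CA9 and EGLN3 were too low to be tested on the right.

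Oxygen-response genes, which like BHLHE40 are known targets of the hypoxia-inducible factors, rose in the same comparisons. All 8 (CA9, NDRG1, ANKRD37, EGLN3, PDK1, ADM, BNIP3 and VEGFA) were DEGs with a higher level in MRC5_CoH196, with a median log2 fold change of 4.39, against 17.2% of all genes that were higher DEGs. Their summed level was 249 to 260 FPKM in MRC5_Mo and 2039 to 2330 FPKM in MRC5_CoH196. In H196_Co, 6 of 6 tested were DEGs with a higher level (median 1.58), against 3.26% of all genes, and the sum was 181 to 201 FPKM alone and 503 to 602 FPKM in co-culture. CA9 and EGLN3, which rose by 7.06 and 6.07 in MRC5_CoH196, were too low to be tested in H196. In H196_Co CA9 was at 0 FPKM in every library and EGLN3 was at 0.02 to 0.12 FPKM. The medians of the lines thus cover different sets of genes. In MRC5_CoH69 none was a DEG, against 0.554% of all genes. There 3 passed the adjusted p with a higher level (6.7% of all genes passed in either direction), and the sum was 273 to 295 FPKM. The glucocorticoid list was split in MRC5_CoH196, with 3 higher DEGs and 1 lower one of 5 tested, against 17.2% and 14.7% of all genes. DUSP1 (1.97), KLF9 (1.32) and MT2A (0.71) were higher DEGs, and FKBP5 fell by 1.39 on the log2 scale. TSC22D3 rose by 0.40 (adjusted p = 8.81e-05, edgeR), below the DEG limit, so that 4 of the 5 passed with a higher level. In H196_Co none of the 4 tested was a DEG, against 3.86% of all genes, and 2 passed the adjusted p, as did 19.8% of all genes. The part of either list in the levels of the clock genes was not tested.

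Pearson correlation was taken on log2 counts scaled per library, over the 9 MRC5 and the 6 H196 libraries apart. Genes were ranked by the lower of both values among 8324 genes. Those most like BHLHE40 were SLC6A8 (0.997 and 0.998), P4HA2 (0.995 and 0.998) and CBX7 (0.995 and 0.996). PAQR5 was most like NR1D1 (0.987 and 0.988), PYGL most like BHLHE41 (0.997 and 0.996), ITM2C most like DBP (0.986 and 0.984) and ERRFI1 most like PER1 (0.994 and 0.992). CRY1 had no close match, its best being UFM1 (0.764 and 0.817). These values describe libraries that fall into groups by co-culture, which any gene with a group difference shares.

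Several of the 10 genes share bases with a neighbour on the other strand in GENCODE release 29, and whether the counting used strand is not given in the sources used here. NR1D1 shares 1081 bases with THRA, which was at 16.1 to 18.2 FPKM in MRC5_Mo and at 18.5 to 19.4 FPKM in MRC5_CoH196. On the counts THRA rose by 0.47 on the log2 scale (SE 0.052, adjusted p = 1.04e-08, edgeR). DBP shares 688 bases with SPHK2, which fell by 0.86 on the log2 scale in MRC5_CoH196, and BHLHE41 shares 3137 bases with SSPN, which rose by 1.02. NR1D2 and NKIRAS1 share 1332 bases, and NKIRAS1 gave 0.29. PER3 shares 2095 bases with UTS2, which was at 0.15 FPKM or less in every MRC5 library, and PER1 shares 5691 bases with AC129492.3 on its own strand, which was not analysed here.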

How the data were processed

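RNA of MRC5 and H196 cells was captured with oligo(dT) and sequenced on BGIseq-500. Per the study's methods and the submitters' processing notes, SOAPnuke cleaned the reads, HISAT placed them on GRCh38.p13, Bowtie2 (2.3.4.3) placed them on gene sequences, and RSEM (1.3.1) is listed among the tools. The authors deposited expected counts and FPKM per library in 1 table per line. Their 30 columns of TPM and normalized counts were not used. The tables also hold gene descriptions.

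Expected counts were rounded (93.7% of MRC5 and 92.1% of H196 values were whole) and fitted with edgeR 4.0.16 in R 4.3.3 (TMM, filterByExpr, quasi-likelihood F test, two-sided, Benjamini-Hochberg over all genes tested). The 9 MRC5 libraries shared a fit, as did the 6 H196 libraries. The 15320 genes listed in both tables entered a joint fit for differences between lines. limma 3.58.1 on log2(FPKM + 1) and log2(FPKM + 0.1) and DESeq2 1.42.0 were alternatives, besides another scaling, no filter, other fold limits, only the groups compared, a replicate block and leaving out each library. The fit was tested on simulated data. Promoter windows came from RefSeq. The motif search covered their upstream 250 bases, and each of the 10 genes matched by symbol.

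Groups came from the sample titles, and the labels give no batch. Replicates were prepared in parallel, and nothing says more about their source, so p-values measure the spread between these samples, which may be technical. No pair of replicates was within sampling noise. All 10 genes were named, as were CLOCK, NPAS2, ARNTL, ARNTL2, NFIL3, RORA and up to 2 DEGs per direction and list with the largest change. Other named genes of the lists were chosen after their values were seen. The members and lists were chosen with earlier results of these data known, and the overlapping neighbours were taken from the annotation.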

Additional observations from a re-analysis of the deposited data

Results flagged for a closer look

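The response to co-culture differed between the lines for 8 of the 10 genes, tested as the MRC5_CoH196 response minus the H196_Co response in the joint edgeR fit. Each difference was positive, with a log2 value of 2.08 for BHLHE40, 2.03 for DBP, 1.89 for NR1D1, 1.72 for BHLHE41, 1.25 for PER1, 0.66 for NR1D2, 0.56 for CRY2 and 0.47 for PER3. For NR1D2 and PER3 the response in H196 alone was near 0 (-0.03 and 0.01), whereas BHLHE40, BHLHE41 and NR1D1 rose in both lines. Over all genes tested 51.2% passed the same test. The lines also differed in partner and in culture medium, and these cannot be told apart from the line itself.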

How the results depend on the processing

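The number of the 10 genes that were DEGs moved by over 1.5 times under the fold limits alone. A limit of 1 left 5 in MRC5_CoH196 against MRC5_Mo and 5 against MRC5_CoH69, losing CRY2, NR1D2 and PER2, and no limit gave 6 in H196_Co, adding DBP, PER1 and PER2. Of 810 single-gene values under alternatives, 754 kept their direction and side of the threshold. For the difference between responses, CRY2 also became a DEG with DESeq2, with its size factors and without any 1 of 6 single libraries (7 of the 10 genes). Between the mono-cultured lines, PER2 became a DEG without the first or second MRC5_Mo or the first H196_Mo library (8), and PER3 did not pass without MRC5_Mo library 2 (0.166) or H196_Mo library 2 or 3 (0.2054 and 0.1997).

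Some values changed sign, among them values near 0. On log2(FPKM + 1) and log2(FPKM + 0.1), CRY1 gave -0.0005 and -0.0004 in MRC5_CoH196 against MRC5_Mo and -0.1256 and -0.137 against MRC5_CoH69. PER3 gave 0.0169 and 0.0235 in MRC5_CoH69, -0.0494 and -0.0669 in H196_Co, and -0.163 and -0.2148 between the mono-cultured lines. Between those lines PER3 had passed on the counts with the other sign (0.23, SE 0.093, adjusted p = 0.026, edgeR). CRY2 in MRC5_CoH69 gave -0.0096 and -0.0109 on these scales, -0.0044 with DESeq2 and with its size factors, and -0.0002 with no filter. With 1 library left out, values in MRC5_CoH69 ran from -0.1818 to 0.0246 for DBP, -0.0240 to 0.0149 for CRY2, -0.0175 to 0.0674 for NR1D2, -0.0501 to 0.0555 for PER3, -0.1100 to 0.0509 for NR1D1 and -0.0568 to 0.2202 for BHLHE41. In H196_Co they ran from -0.1157 to 0.0501 for NR1D2, -0.0789 to 0.1272 for PER3 and -0.0468 to 0.0378 for CRY1. The cause was not tested.

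Over all genes, log2(FPKM + 1) gave 915 higher of 2997 DEGs in MRC5_CoH196 against 2207 of 4092 on counts, and 821 of 2567 against 1943 of 3618 for MRC5_CoH196 with MRC5_CoH69. It gave 17 of 18 against 54 of 71 in MRC5_CoH69 (DESeq2 32 of 40) and 195 against 494 in H196_Co. Between the lines it gave 2451 higher of 7728 against 4100 of 8379, and for the difference between responses 822 of 2382 against 1644 of 3357. On log2(FPKM + 0.1) the higher ones were 1437 of 4306 in MRC5_CoH196, 1281 of 3848 against MRC5_CoH69, 306 of 417 in H196_Co (417 of 494 on counts), 2840 of 8912 between the lines and 1334 of 3513 for the difference between responses.

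Deviations of same-numbered replicates were at most weakly correlated (r from -0.151 to 0.081), and the numbers were used as names only. With 3 libraries per group, these values cannot exclude a pairing. With a replicate block the number of the 10 genes that were DEGs stayed the same in all 6 comparisons. DEGs over all genes were 4088 in MRC5_CoH196, 70 in MRC5_CoH69, 3612 between the co-cultures, 471 in H196_Co, 3327 for the difference between responses and 8332 between the lines.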
